A study of Mus musculus with 4 samples.

Results

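Dermal cells of the abdominal skin of a 15 dpc (days post-coitus) pregnancy were compared with dermal cells of the dorsal skin at the same stage, with 1 microarray for each. The probe sets compared were those that carried a single gene symbol and were called present, the array software's mark of a detected transcript, on at least 1 of the 2 arrays. These were 23398 of the 34945 probe sets with a single symbol and of 45101 on the array, and they stood for 13016 of 18193 genes. The series measured total RNA of dermal cell suspensions under 4 conditions with 1 array each, and the other 2 conditions were abdominal skin of virgin mice and abdominal skin of 15 dpc mice given PP2, an inhibitor of Src family kinases. All mice were C57BL/6 females, 10 weeks old by the sample labels and 8 to 12 weeks by the study's design, and all received intradermal injections 2 times a day for 4 days, starting at 12 dpc in the pregnant mice. Both compared conditions received the vehicle, dimethyl sulphoxide (DMSO). Sample titles give 15 dpc and sample descriptions 16 dpc for the pregnant samples. By the study's methods the fat beneath the skin was removed before the skin was digested, and dermal cells were freed with collagenases and hyaluronidase. The sources used here do not say whether mice were pooled for an array. The 2 arrays are called the abdominal and the dorsal array below, and values of the virgin and PP2 arrays are given beside them for orientation.

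The dermis is the connective tissue layer of the skin. Its fibroblasts make collagen and other matrix, and it holds hair follicles, sebaceous glands, vessels, nerves with their Schwann cells, smooth muscle and immune cells. The dermis of the back and of the belly arise from different parts of the embryonic mesoderm, and dermal cells of different body sites are known to keep different sets of patterning genes. Hair follicles pass through growth, regression and rest, and the proteins of the hair shaft are made during growth. In pregnancy the belly skin has to widen with the growing litter, and the question behind the design was which transcripts of its dermis differ from those of skin that widens less.

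Signals are intensities on a linear scale, and a ratio of signals between the arrays was taken for the brightest probe set of each gene (the largest mean log2 signal over the 4 arrays). A gene was counted as higher on an array when its signal there was more than 2 times that on the other array and was called present. Where the dimmer signal was not called present, the fold is a lower bound, taken against that signal or against the dimmest signal called present on that array, whichever was larger. Where a pair of signals is given for a gene, the first is from the abdominal and the second from the dorsal array. Probe sets of a gene mentioned below are the compared ones, and those called present on neither array are left out unless named as such. With 1 array a condition there was no replicate, so no value below has an error, no difference was tested, and a difference between these arrays is a difference between 2 RNA samples.

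The share of probe sets called present was 59.4% on the abdominal and 58.8% on the dorsal array, the median signal of the spiked-in control probe sets was 4176 and 6880, and Pearson's r between their log2 signals was 0.933 over the compared probe sets (a description across probe sets, which are not replicates). The signal of the 3' end over that of the 5' end, a measure of how far RNA was degraded or incompletely copied, was 1.41 for the *Gapdh* control probe sets on the abdominal array and 2.97 on the dorsal array, and 2.03 and 4.14 for those of actin. On the virgin and PP2 arrays, both of abdominal skin, it was 2.51 and 5.84 for *Gapdh* and 2.64 and 2.70 for actin. The dorsal array thus had the higher ratio of the compared pair, and the part of these control values in the differences below was not tested. The label of dermis was checked against marker genes. Fibroblast genes were bright on both arrays: *Col1a2*, a chain of type I collagen, had signals of 25489 and 22238, *Col3a1*, the type III chain, 30307 and 22191, *Dcn*, the proteoglycan decorin, 25734 and 21595, and *Vim*, the intermediate filament of mesenchymal cells, 29482 and 42093. Keratinocyte genes were also called present and bright, *Krt14* at 14877 and 13083, *Krt5* at 16946 and 19184 and *Krt10* at 26474 and 38195, so both suspensions carried RNA of epidermal or follicular keratinocytes. In such mixed samples a lower signal cannot be told apart as fewer cells of a type or less RNA per cell. Other tissues were detected in part. Of 40 skeletal muscle genes on the array 12 were called present on at least 1 of the pair (9 on the abdominal and 8 on the dorsal array), of 14 mast cell genes 2, of 33 T, natural killer and B cell genes 14 (13 and 7) and of 9 erythroid genes 3. Defining genes not called present on either array were the creatine kinase *Ckm* and the troponin *Tnnt3* of skeletal muscle, the mast cell proteases *Cpa3*, *Cma1* and *Mcpt4*, the T cell receptor chain *Cd3e* and the haemoglobin gene *Hba-a1*.

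Of the 13016 genes, 706 (5.42%) were higher on the abdominal array and 664 (5.1%) on the dorsal array, together 10.5%, and the median log2 ratio of abdominal over dorsal signal over all genes was 0.04, with quartiles of -0.29 and 0.35. On both sides 441 of the genes were called present on both arrays, and the dimmer signal of the other 265 and 223 was not. Differences of more than 4-fold between signals called present on both arrays numbered 87 on the abdominal and 57 on the dorsal side, and those of more than 8-fold 21 and 13. The threshold cut through a continuous range: the 5 ratios nearest above it ran from 2.00087 to 2.00403 on the abdominal side and from 2.00057 to 2.0057 on the dorsal side, and the 5 nearest below it from 1.99168 to 1.99679 and from 1.99484 to 1.99975. Probe sets of 1 gene did not always move together. Of the 193 genes higher on the abdominal array with several compared probe sets, 161 had all of them on that side and 84 had all past 2-fold, and of the 202 on the dorsal side 181 and 93 did.

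**Figure D1:**
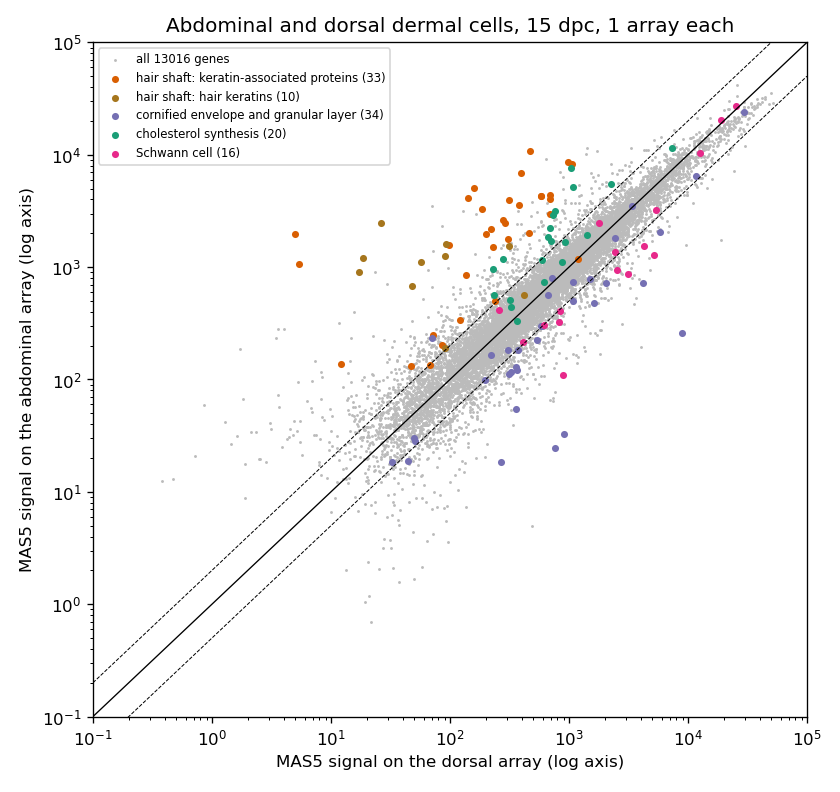
Each grey point is 1 of the 13016 genes, plotted by its MAS5 signal on the dorsal array (horizontal, log axis) and on the abdominal array (vertical, log axis), with members of 5 gene lists in colour, the line of equal signal solid and the 2-fold lines dashed. The keratin-associated protein and hair keratin genes lie far above the 2-fold line, the cholesterol synthesis genes above or near it, and many cornified envelope and Schwann cell genes lie below.

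Of the 63 gene lists examined, 62 had at least 3 genes compared, and 18 of these had a median log2 ratio beyond 0.5 in size. The lists whose signals lay on the abdominal side were those of hair shaft and root sheath, cholesterol and fatty acid synthesis, sebaceous gland, cell cycle, macrophage, smooth muscle, lymphatic endothelium and brown fat. In the brown fat list 3 of 8 genes were higher on the abdominal and 0 on the dorsal array (median 0.71). *Ucp1*, a defining gene of brown fat, was not called present on either array, at signals of 7.37 and 11.6. The largest difference of the list was that of *Cidea* (log2 ratio 2.50), which is also a gene of the sebaceous gland. Lists can share genes, and 117 of the 1222 list genes compared were in several lists. Whether brown fat itself differed was not tested. The lists on the dorsal side were those of tendon and fascia, cornified envelope, Schwann cell, spinous keratinocyte, papillary fibroblast, immediate early and circadian clock genes. The others are described below by their counts, to be read against the 5.42% and 5.1% of all genes.

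**Figure D2:**
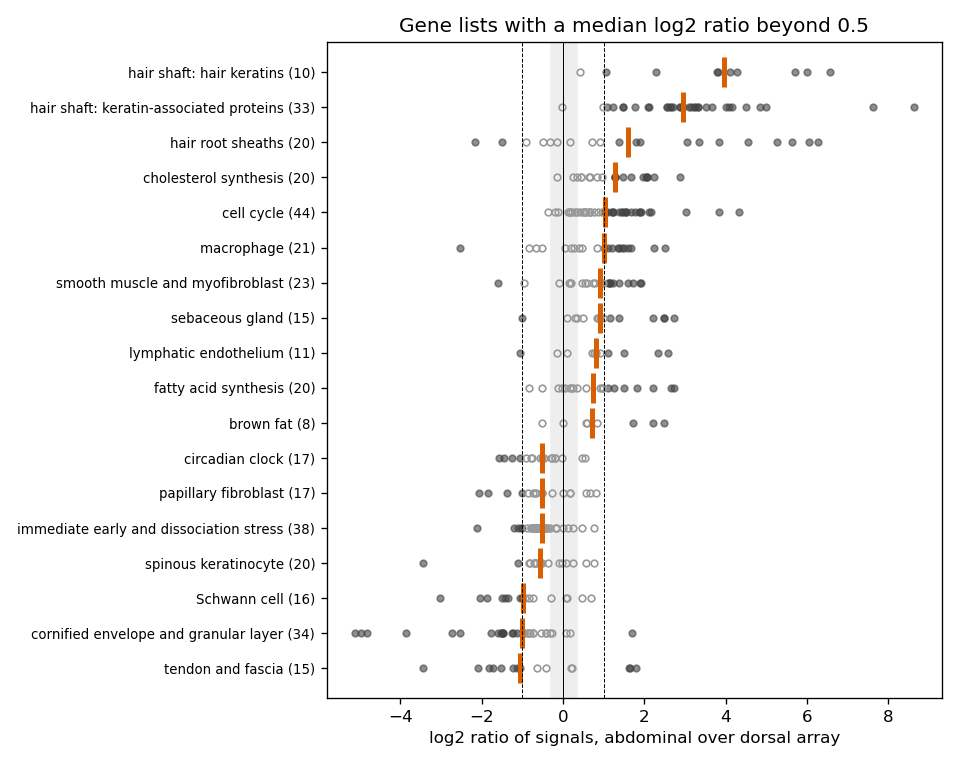
Each row is a gene list with the number of its genes compared, and each point a gene at its log2 ratio of abdominal over dorsal signal, filled where the gene was counted as higher on 1 array and open where it was not. Orange bars mark list medians, the grey band the quartiles over all 13016 genes (-0.29 to 0.35) and dashed lines 2-fold. Medians run from -1.06 for tendon and fascia to 3.97 for hair keratins.

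Genes of the growing hair shaft were among those with the largest differences on the abdominal side. Keratin-associated proteins fill the space between the keratin filaments of the shaft, and of 38 such genes on the array 33 were compared, 31 of them higher on the abdominal array and 0 on the dorsal, with a median log2 ratio of 2.96. All 33 were called present on the abdominal array and 27 also on the dorsal array, where their signals ranged from 4.95 to 1192 with a median of 237, against 131 to 10723 with a median of 2205 on the abdominal array. *Krtap8-1* had signals of 10723 and 469.6 (22.8-fold), *Krtap15* 5042 and 159 (31.7-fold) and *Krtap7-1* 4101 and 142 (29.0-fold), each present on both arrays. *Krtap11-1* had 1974 on the abdominal array and was not called present on the dorsal array, a difference of at least 211-fold. Many of these genes are near-identical copies whose probes may share transcripts, so they are not independent of each other. Their summed signal was 97359 on the abdominal array, 11398 on the dorsal, 1643 on the virgin and 4633 on the PP2 array. The dorsal array thus held more of this RNA than the virgin and PP2 arrays did and less than the abdominal one.

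The hair keratins, the filaments themselves, showed the same side: 9 of 10 compared (of 12 on the array) were higher on the abdominal array, and 2 were called present on the dorsal array. *Krt33a* had signals of 2473 and 26.2 (at least 94.3-fold), *Krt35* 1209 and 18.7 (at least 64.8-fold) and *Krt81*, present on both arrays, 1543 and 313 (4.92-fold). Of 20 root sheath genes compared (22 on the array), 11 were higher on the abdominal and 2 on the dorsal array (median 1.59). The keratins of the inner root sheath were on the abdominal side, *Krt25* at 3524 and 70.4 (50.0-fold), *Krt28* at 903 and 23.3 (at least 38.7-fold) and *Krt71* at 706 and 29.8 (at least 23.7-fold), as were *Tchh* (trichohyalin, a matrix protein of the inner sheath) at 3134 and 375 and *Padi3*, the enzyme that modifies trichohyalin, at 232 and 3.48. The dorsal *Padi3* signal was not called present, and the log2 ratio of *Padi3* fell as low as 1.54 over the alternative settings. *Tgm3*, a crosslinking enzyme of both hair and cornified epidermis, had 224 and 1002 and was 4.47-fold higher on the dorsal array. Of the regulators of the hair matrix and bulge, *Hoxc13*, a transcription factor that drives hair keratin genes, had 590.4 and 268 (2.20-fold higher on the abdominal array), *S100a3*, which binds calcium in the cuticle, 1083 and 56.8 (at least 19.1-fold), and *Lef1*, a Wnt effector of the matrix, 556 and 1389, 2.50-fold higher on the dorsal array. The other 15 of 18 did not pass 2-fold, the bulge stem cell gene *Lgr5* at 1564 and 930.2 among them.

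Because the hair genes moved together, the 250 bases before their annotated transcription starts were read from RefSeq (GRCm38.p6) and searched for 9 short motifs chosen after the values were seen. TATAAA, the core of the TATA box, was searched on the strand of the gene and the others on both strands. They were CCAAT as bound by NF-Y, TTTGAA as the cell cycle homology region, CTTTGAA (which contains TTTGAA) as bound by Lef and Tcf factors, TGANTCA as bound by AP-1, CANNTG as the general E-box (it can overlap the others), ACAAAG as bound by Sox factors, TTTCGCGC as bound by E2F and TCACNCCAC as bound by sterol regulatory factors. A promoter was given for 10467 of the genes compared. TATAAA stood in the promoters of 25 of 31 keratin-associated protein genes (80.6%), of 4 of 5 hair keratin genes and of 7 of 14 root sheath genes, against 5.64% of all genes. It lay 25 to 35 bases before the start in 17 of the 31, against 1.91% of all genes. CTTTGAA stood in 4 of 5 hair keratin and 6 of 31 keratin-associated protein promoters, against 4.03% of all genes. ACAAAG stood in 13 of 31 keratin-associated protein and 1 of 5 hair keratin promoters (14.8% of all genes), TTTGAA in 8 and 4 (12.9%) and CANNTG in 25 and 4 (62.5%). A match of letters is not a bound site. The promoters of *Krtap8-1* (chr16:89487953-89488202, minus strand), *Krtap11-1* (chr16:89571184-89571433, minus strand), *Krt31* (chr11:100050552-100050801, minus strand) and *Krt33b* (chr11:100029869-100030118, minus strand) are shown 5′ to 3′, the last base being the one before the start, with TATAAA and CTTTGAA in capitals. They are shown because they pair large abdominal differences with these motifs.
Krtap8-1: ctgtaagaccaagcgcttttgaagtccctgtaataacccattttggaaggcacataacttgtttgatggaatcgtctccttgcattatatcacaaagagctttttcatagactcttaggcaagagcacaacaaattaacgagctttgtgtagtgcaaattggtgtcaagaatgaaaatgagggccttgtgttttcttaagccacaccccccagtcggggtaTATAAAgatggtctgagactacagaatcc
Krtap11-1: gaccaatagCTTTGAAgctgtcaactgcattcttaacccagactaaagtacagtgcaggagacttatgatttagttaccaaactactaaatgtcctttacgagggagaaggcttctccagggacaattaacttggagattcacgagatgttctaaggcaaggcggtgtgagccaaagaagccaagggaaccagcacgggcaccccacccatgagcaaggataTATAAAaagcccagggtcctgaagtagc
Krt31: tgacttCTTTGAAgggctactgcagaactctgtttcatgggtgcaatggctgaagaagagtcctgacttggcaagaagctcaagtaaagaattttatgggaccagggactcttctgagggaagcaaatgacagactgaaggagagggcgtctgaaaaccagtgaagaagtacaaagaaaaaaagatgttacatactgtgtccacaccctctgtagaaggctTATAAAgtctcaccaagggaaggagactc
Krt33b: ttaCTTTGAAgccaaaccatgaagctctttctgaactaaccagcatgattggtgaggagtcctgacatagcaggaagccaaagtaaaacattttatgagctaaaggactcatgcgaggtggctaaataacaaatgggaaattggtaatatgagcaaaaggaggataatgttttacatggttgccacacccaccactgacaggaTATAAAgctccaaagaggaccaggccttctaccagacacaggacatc

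In these 4 promoters TATAAA began 29 bases before the start in *Krtap8-1*, 28 in *Krtap11-1*, 29 in *Krt31* and 47 in *Krt33b*. CTTTGAA began 241 bases before the start of *Krtap11-1*, 244 before that of *Krt31* and 247 before that of *Krt33b*, and was not in the window of *Krtap8-1*. *Krt31* had signals of 1244 and 90.6 and *Krt33b* of 909 and 17.3, neither called present on the dorsal array.

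Genes of the dermal papilla, the fibroblast cluster that instructs the follicle, passed 2-fold on the dorsal side only. Of 25 compared, 10 were higher on the dorsal and 0 on the abdominal array, while the median log2 ratio was 0.03. The summed signal of the list was 43166 on the abdominal array, 80083 on the dorsal, 85469 on the virgin and 81073 on the PP2 array. The dorsal sum was thus near those of the virgin and PP2 arrays, both of abdominal skin, and the abdominal array had the lowest. The dorsal side held *Sox2*, a transcription factor of the papilla of some hair types and also of Schwann lineage cells, at 527 and 3635 (6.90-fold), *Ndnf*, a secreted factor, at 789.6 and 3863 (4.89-fold), *Trps1*, a repressor of transcription, at 909 and 3275 (3.60-fold), and *Rspo2*, an enhancer of Wnt signals, at 34.6 and 157 (at least 4.52-fold). *Lepr*, the leptin receptor, had 5166 and 11853 (2.29-fold). The commonly used papilla markers *Corin* at 114 and 84.4, *Wif1* at 3019 and 2658, *Crabp1* at 3586 and 3186 and *Vcan* at 598 and 583 did not pass 2-fold. The fibroblast growth factors *Fgf7*, made by the papilla for epithelium, and *Fgf10* had 648 and 1815 (2.80-fold) and 127 and 301 (at least 2.37-fold), both higher on the dorsal array, as was the receptor *Fgfr1* at 2084 and 4775 for its brightest probe set, though another of its probe sets had a log2 ratio of 0.06. Of the 21 genes of that family compared, 5 were higher on the dorsal and 1, the carrier protein *Fgfbp1* at 5656 and 2593, on the abdominal array. *Fgf18* had 78.0 and 356 (at least 4.57-fold), and *Fgf14*, a non-secreted member that binds sodium channels, 7.22 and 89.5 (at least 12.4-fold), neither called present on the abdominal array. With low signals raised to 79.5, *Fgf14* and *Rspo2* were short of 2-fold, and so were *Lepr* and *Fgfr1* with the mean over probe sets.

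Genes of the uppermost living and cornified layers of the epidermis lay on the dorsal side. Of 34 cornified envelope and granular layer genes compared (47 on the array), 17 were higher on the dorsal and 1 on the abdominal array, with a median of -1.0, and 31 of 34 had the larger signal on the dorsal array. Beyond the structural proteins, the proteases and inhibitors that govern shedding were on the dorsal side: *Klk7* at 719.6 and 2055 (2.86-fold), *Klk5* at 495 and 1084 (2.19-fold), their inhibitor *Spink5* at 718 and 4170.0 (5.81-fold) and the protease *Asprv1*, which processes filaggrin, at 476 and 1633 (3.43-fold). The crosslinking enzyme *Tgm1* had 121 and 364 (3.01-fold) and *Casp14*, a caspase of cornification, 113 and 314 (2.78-fold). *Lor*, the loricrin gene and the largest dorsal difference among genes present on both arrays, had 257 and 8964, with 469 and 262 on the virgin and PP2 arrays. The exception was *Sprr2h*, a small proline-rich envelope protein, at 232 and 71.3 and at least 3.26-fold higher on the abdominal array. The difference narrowed towards the basal layer: 2 of 20 spinous genes were higher on the dorsal array (median -0.56), *Krt2* at 68.5 and 739 (at least 10.8-fold) and *Dsc1* at 1876 and 4042 (2.15-fold), and 1 of 20 basal genes (median -0.16), the linker protein *Dst* at 5513 and 11409. The summed signal of the basal list was 134325 on the abdominal and 155219 on the dorsal array, that of the spinous list 136177 and 202999, and that of the cornified list 45737 and 81557. *Dsc1* and *Dst* were short of 2-fold with the mean over probe sets. How much epidermis each suspension kept was not tested.

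TATAAA also stood in 10 of the 26 cornified envelope promoters given (38.5%), and TGANTCA in 7 of them (26.9%) against 5.84% of all genes. TGANTCA was not particular to this list, since it stood in 6 of 31 keratin-associated protein promoters (19.4%). The promoter of *Lor* (chr3:92083143-92083392, minus strand), shown as the gene with the largest dorsal difference among those present on both arrays, has TATAAA in capitals, 27 bases before the start. It also holds TGAGTCA, a match to TGANTCA, which is left in lower case.
Lor: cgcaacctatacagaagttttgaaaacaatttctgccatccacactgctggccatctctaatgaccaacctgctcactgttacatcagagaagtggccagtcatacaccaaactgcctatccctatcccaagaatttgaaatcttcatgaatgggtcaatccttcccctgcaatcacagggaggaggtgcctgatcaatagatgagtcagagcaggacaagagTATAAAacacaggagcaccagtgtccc

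Genes of cholesterol synthesis lay on the abdominal side almost throughout. Of 20 genes of the pathway compared, all called present on both arrays, 11 were higher on the abdominal and 0 on the dorsal array, 19 of 20 had the larger signal on the abdominal array, and the median log2 ratio was 1.28. In the order of the pathway, the entry enzyme *Hmgcs1* had 11448 and 7363, the mevalonate kinase *Mvk* 444 and 327 and the next kinase *Pmvk* 1161 and 592, all short of 2-fold. Most of the steps after these passed it. *Mvd*, which makes isopentenyl diphosphate, had 960.0 and 230.0 (4.17-fold), its isomerase *Idi1* 5154 and 1085 (4.75-fold) and *Fdps*, which makes farnesyl diphosphate, 3135 and 767 (4.09-fold). *Fdft1*, the squalene synthase, had 5486 and 2251 (2.44-fold), the squalene epoxidase *Sqle* 2219 and 692 (3.21-fold) and the lanosterol synthase *Lss* 1170.0 and 279 (4.19-fold). The sterol demethylase *Cyp51* had 2901 and 741 (3.92-fold) and the methyl oxidase *Msmo1* 7582 and 1034 (7.33-fold), though the other probe set of *Msmo1* had a log2 ratio of 0.54. The last steps differed less, *Ebp* at 1922 and 1414, *Sc5d* at 731 and 614 and *Dhcr7* at 329.8 and 363, the only member with a larger dorsal signal. Of the regulators, *Insig1*, which holds the sterol sensor in the endoplasmic reticulum, had 1696 and 701 (2.42-fold) and *Srebf2*, the transcription factor of the pathway, 508 and 322. The summed signal of the list was 52071 on the abdominal array, 50804 on the virgin and 48025 on the PP2 array, and 21487 on the dorsal array.

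**Figure D3:**
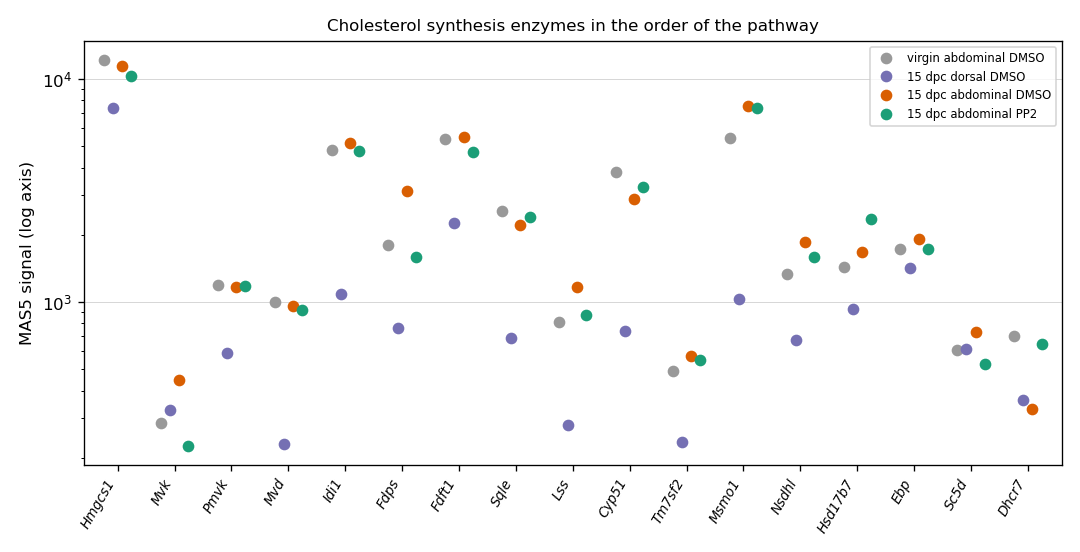
MAS5 signals (log axis) of 17 cholesterol synthesis enzymes on the 4 arrays, in the order of the pathway from left to right, 1 point per array and all called present. The dorsal points lie below the abdominal ones in 16 of 17 enzymes, by up to 7.33-fold for *Msmo1*, and the exception is *Dhcr7*.

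CCAAT stood in the promoters of all 16 cholesterol genes for which one was given, against 40.2% of all genes, and in 29 of 38 cell cycle promoters (76.3%). TTTCGCGC stood in 4 of the 38, against 0.60% of all genes, and TTTGAA in 11 of the 38 (28.9%), against 12.9%. TCACNCCAC stood in 1 of the 16 (all genes 1.25%). The promoters of *Idi1* (chr13:8885356-8885605, plus strand), *Lss* (chr10:76531355-76531604, plus strand) and *Msmo1* (chr8:64733579-64733828, minus strand), the 3 genes of the list with the largest differences, are shown with CCAAT, or ATTGG where it lies on the other strand, in capitals.
Idi1: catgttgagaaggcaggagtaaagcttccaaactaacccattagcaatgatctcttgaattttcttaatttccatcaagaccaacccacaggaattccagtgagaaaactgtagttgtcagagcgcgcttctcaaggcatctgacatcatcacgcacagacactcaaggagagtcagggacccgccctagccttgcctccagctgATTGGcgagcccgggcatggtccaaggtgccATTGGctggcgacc
Lss: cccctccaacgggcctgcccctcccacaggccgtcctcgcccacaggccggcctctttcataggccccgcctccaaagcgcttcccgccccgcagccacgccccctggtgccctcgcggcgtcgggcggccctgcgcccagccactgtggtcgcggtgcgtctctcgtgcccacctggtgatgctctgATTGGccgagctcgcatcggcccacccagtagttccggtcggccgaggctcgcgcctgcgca
Msmo1: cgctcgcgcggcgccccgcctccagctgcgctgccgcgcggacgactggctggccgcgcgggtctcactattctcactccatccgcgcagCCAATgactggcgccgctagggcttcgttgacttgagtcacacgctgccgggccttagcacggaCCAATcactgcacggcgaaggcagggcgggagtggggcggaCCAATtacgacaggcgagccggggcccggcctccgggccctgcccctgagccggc

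Fatty acid synthesis and sebaceous gland genes were on the same side. Of 20 fatty acid synthesis genes compared, 7 were higher on the abdominal and 0 on the dorsal array (median 0.73). Among them were the elongases *Elovl6* at 10899.5 and 1719 (6.34-fold), *Elovl3* at 3032 and 657 (4.61-fold) and *Elovl5* at 14248 and 5975 (2.38-fold), with *Acss2*, which makes acetyl-CoA, at 3683 and 1046 (3.52-fold). The core enzymes *Fasn* at 3149.7 and 1672, *Acly* at 7959 and 5416 and *Scd1* at 25212 and 19940.2 did not pass 2-fold. Of 15 sebaceous gland genes, 6 were higher on the abdominal array, among them the desaturase *Scd3* at 2444 and 367 (6.66-fold), *Far2*, which makes the alcohols of wax esters, at 3684 and 657 (5.60-fold), and *Krt79*, a keratin of the gland duct, at 7289.8 and 2793 (2.61-fold). The exception was *Prdm1*, a repressor of transcription found in the gland and in the papillary dermis, at 358 and 722 (2.02-fold higher on the dorsal array). Of 19 adipocyte genes, 7 were higher on the abdominal array. *Aqp7*, a glycerol channel, had 1306 and 164 (7.98-fold), the hormone gene *Adipoq* 850.5 and 168 (5.05-fold), *Lpl*, the lipase that feeds fat cells, 6402 and 1596 (4.01-fold) and *Cidea*, a lipid droplet protein of both brown fat and sebaceous gland, 4981 and 883 (5.64-fold), whereas *Fabp4* at 41761 and 26062 and *Pnpla2*, a lipase that empties fat cells, at 1086 and 2125 did not pass 2-fold. *Elovl5* was short of 2-fold with the probe set chosen on the compared arrays alone, and *Prdm1* with both arrays scaled to one median. In turn, *Fabp4*, *Scd1* and *Pnpla2* passed 2-fold in at least 1 alternative setting. Their log2 ratios reached 1.60, 1.003 and -1.002. How much fat each suspension kept was not tested.

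Cell cycle genes were brighter on the abdominal array. Of 44 compared (48 on the array), 43 were called present on the abdominal and 32 on the dorsal array, 24 were higher on the abdominal and 0 on the dorsal array, 41 had the larger signal on the abdominal array, and the median log2 ratio was 1.03. *Mki67*, the antigen of cycling cells, had 777 and 208 (3.73-fold), and 499 and 719.9 on the virgin and PP2 arrays. The mitotic genes *Ect2*, which starts the division of the cell body, at 378 and 83.4 (4.52-fold), *Ccnb2*, a mitotic cyclin, at 238 and 74.4 (3.20-fold) and *Cenpf*, a kinetochore protein, at 205 and 71.0 (2.88-fold) were present on both arrays. *Tk1*, the thymidine kinase of S phase, had 147 and 7.30 (at least 15.7-fold), the checkpoint kinase *Bub1* 113 and 13.8 (at least 8.20-fold) and *Ccne1*, the cyclin of S phase entry, 117 and 8.22 (at least 12.5-fold), with the dorsal signal not called present. With low signals raised to 79.5 (the 10th percentile of signals called present), these 3 differences were short of 2-fold. The replication genes were nearer to equal, *Pcna* at 4932 and 3399.5, *Mcm6* at 1246 and 1006 and *Mcm7* at 2043 and 2657, and *Rrm2*, a subunit of the enzyme that makes deoxynucleotides, at 707 and 775. The list's summed signal was 22216 and 15329, and 19156 and 25622 on the virgin and PP2 arrays. The hair genes lay on the same side of the compared pair but did not follow this list over the 4 arrays. On the PP2 array the summed signal of this list was the highest of the 4. That of the keratin-associated proteins was 4633 there, against 97359 on the abdominal array. Which cells were cycling was not measured.

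Schwann cell genes lay on the dorsal side in part. Of 16 compared, all called present on both arrays, 8 were higher on the dorsal and 0 on the abdominal array (median -0.98). Those past 2-fold included genes known from immature Schwann cells and from neural crest. *Sox10*, the transcription factor of Schwann cells and melanocytes, had 864 and 3162 (3.66-fold), *Fabp7*, a lipid-binding protein of glial precursors, 110.0 and 892 (8.11-fold), and *Cdh19*, a cadherin of Schwann cell precursors, 1277 and 5231 (4.10-fold). The calcium-binding protein *S100b* had 1527 and 4306 (2.82-fold), the adhesion molecule *L1cam* 952 and 2554 (2.68-fold), the neurotrophin receptor *Ngfr* 326 and 827 (2.54-fold) and the neural crest factor *Foxd3* 306 and 619.7 (2.02-fold, short of 2-fold with both arrays scaled to one median). The myelin genes did not pass 2-fold: *Mbp* had 26896 and 25472, *Pmp22* 20558 and 19044 and *Cnp* 10291 and 12564, and *Mag*, a myelin adhesion molecule, 415 and 257. Glial and neural genes outside the list were among the 20 largest dorsal differences present on both arrays. They were *Bcan* (brevican, a neural matrix proteoglycan) at 314 and 2799 (8.91-fold), *Ptprz1*, a receptor phosphatase of glia, at 471 and 3490.1 (7.41-fold), *Gpr37*, a receptor of myelinating glia, at 159 and 1182 (7.44-fold), *Nalcn*, a sodium leak channel, at 66.1 and 693 (10.5-fold) and *Sema4f*, a semaphorin, at 142 and 1176 (8.31-fold). Their signals on the virgin and PP2 arrays were 423 and 1123 for *Bcan* and 493 and 2279 for *Ptprz1*, and for *Cdh19* they were 822 and 4558.

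**Figure D4:**
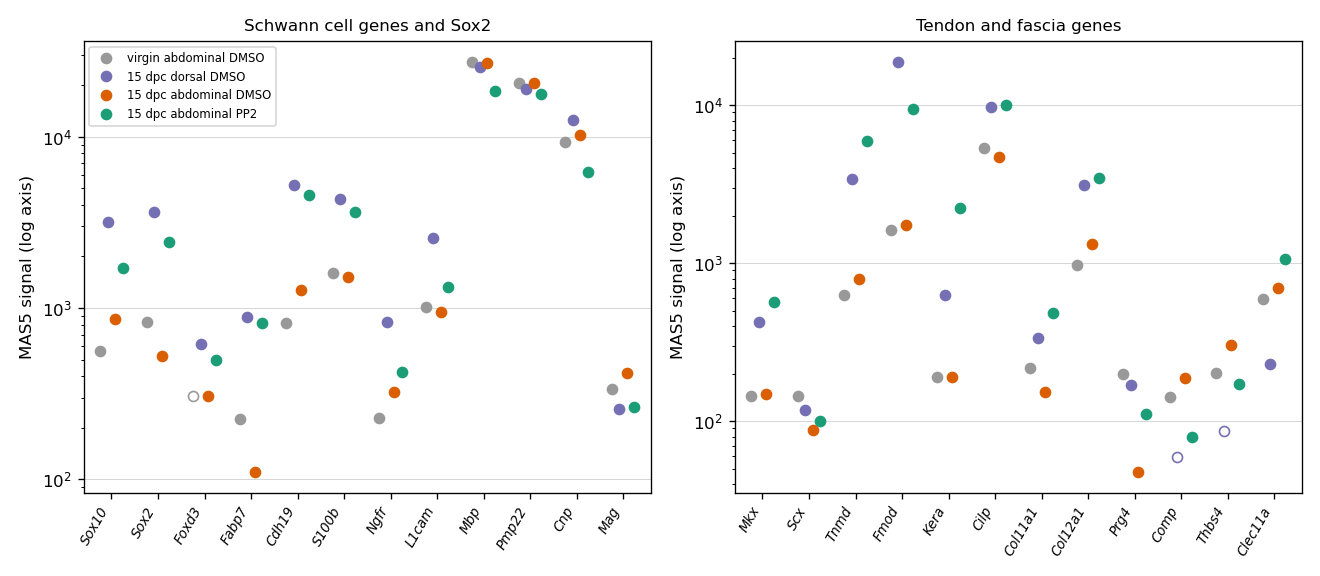
MAS5 signals (log axis) of Schwann cell genes with *Sox2* (left) and of tendon and fascia genes (right) on the 4 arrays, 1 point per array, filled where called present. In the left panel dorsal points lie above abdominal ones from *Sox10* to *L1cam* and close to them for the myelin genes *Mbp*, *Pmp22* and *Cnp*. In the right panel they lie above from *Mkx* to *Prg4* (*Fmod* by 10.9-fold) and below for *Comp*, *Thbs4* and *Clec11a*.

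Pigment cell genes went both ways. Of 17 compared, 3 were higher on the abdominal and 2, *Sox10* and *Mlph*, on the dorsal array, and the median of 0.21 changed sign between settings (-0.24 to 0.39). The melanin enzyme *Dct* had 782 and 205 (3.81-fold higher on the abdominal array), the melanosome matrix gene *Pmel* 361 and 95.3 (at least 3.79-fold) and *Tyrp1* 957 and 1695, with the larger signal on the dorsal array and short of 2-fold. *Tyr*, the first enzyme of melanin synthesis, had probe sets on either side, with log2 ratios from -1.98 to 1.11, and a mean over them of -0.44. *Mlph*, a carrier of melanosomes, had 101 and 519 (5.12-fold higher on the dorsal array). Among 45 axon guidance genes, 7 were higher on the dorsal and 1 on the abdominal array. The receptors *Robo2* at 126 and 754 (6.00-fold), *Epha7* at 83.9 and 442 (5.27-fold) and *Dcc* at 8.10 and 63.0 (at least 7.78-fold) and the growth factor *Bdnf* at 195 and 707 (at least 3.63-fold) were on the dorsal side, and the repellent *Sema3a* at 463 and 204 (2.27-fold) on the abdominal side. The signals of *Dcc* were equal with low signals raised to 79.5.

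Fibroblast and matrix genes were divided between the arrays. Of 26 general fibroblast markers 7 were higher on the abdominal and 1 on the dorsal array (median 0.07), among them *Clec3b*, a secreted lectin, at 894 and 302 (at least 2.96-fold) on the abdominal and *Fap*, a protease of activated fibroblasts, at 989 and 2226 (2.25-fold) on the dorsal side. Of 15 tendon and fascia genes compared, 8 were higher on the dorsal and 3 on the abdominal array (median -1.06). *Mkx*, a transcription factor of tendon, had 148 and 423 (2.86-fold), *Tnmd* (tenomodulin, a membrane protein of mature tendon) 800.3 and 3399 (4.25-fold), *Kera*, the proteoglycan keratocan, 191 and 628 (3.29-fold), and *Fmod* (fibromodulin) 1734 and 18858, with all 6 of its probe sets between log2 ratios of -3.59 and -3.33. *Scx*, the early factor of tendon, had 88.2 and 118 and did not pass 2-fold. On the abdominal side were *Thbs4* at 305 and 87.3 (at least 3.50-fold), *Comp* at 187 and 59.5 (at least 3.14-fold), both pentameric matrix proteins, and the growth factor *Clec11a* at 699 and 229 (3.06-fold). The virgin and PP2 arrays had 629 and 5931 for *Tnmd* and 1614 and 9534 for *Fmod*.

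Of 20 collagen genes, 2 were higher on the abdominal array, *Col1a1* at 11529.6 and 3344 (3.45-fold) and *Col5a1* at 3131 and 1356 (2.31-fold), and 4 on the dorsal array, *Col12a1* at 1322 and 3108, *Col27a1* at 965 and 2267, *Col11a1* at 154 and 339 and *Col5a3* at 862 and 1805, each by 2.09-fold to 2.35-fold (*Col5a3* short of 2-fold with both arrays scaled to one median). *Col1a2*, whose chain joins that of *Col1a1* in type I collagen, differed less, with a log2 ratio of 0.20 for its brightest probe set. Over the alternative settings its ratio ran up to 0.70, and that of *Col1a1* from 1.79 to 1.99. *Lum*, the proteoglycan lumican, had 6871 and 1521 (4.52-fold higher on the abdominal array), and 8972 and 8663 on the virgin and PP2 arrays, so the dorsal signal stood apart. Of the collagen maturation genes, *Pcolce*, which helps trim procollagen, had 8549.9 and 3342 (2.56-fold) and the protease *Tll1* 334 and 87.8 (3.81-fold), both higher on the abdominal array, and 0 of 27 were higher on the dorsal array. Elastic fibre genes were on the abdominal side in 3 of 15, the microfibril protein *Mfap5* at 978 and 411 (2.38-fold), *Fbln2* at 2576 and 1016 and *Fbln1* at 1377 and 601. Other probe sets of *Fbln2* and *Fbln1* had log2 ratios down to -0.23 and -0.14, which left both short of 2-fold with the mean over probe sets, and *Eln*, elastin itself, had 1710.2 and 1298. Of adhesive proteins *Fn1* (fibronectin) had 3719.6 and 933 (3.98-fold), *Tnxb* (tenascin X) 2604 and 746 (3.49-fold) and *Thbs2* 3691 and 1223 (3.02-fold) with the larger signal on the abdominal array. *Coch*, a secreted matrix protein, had 1574 and 9545 (6.06-fold), and *Ccn2*, a growth factor-binding protein induced by stretch and TGF-beta, 2791 and 8069 (2.89-fold), both higher on the dorsal array. *Tgfb2*, a TGF-beta ligand, had 528 and 2269 (4.30-fold higher on the dorsal array), the only one of 25 genes of its pathway on that side, and *Gdf10* at 1106 and 481 was the only one on the abdominal side. The protease *Mmp3* at 1789 and 387 (4.63-fold on the abdominal side) and the inhibitor *Timp1* at 198 and 729 (3.69-fold on the dorsal side) went opposite ways. Markers of the upper, papillary dermis leaned to the dorsal array with 4 of 17 higher there and 0 on the abdominal array, *Col13a1* at 506 and 2124 (log2 ratio -2.07) and *Ntn4* at 2569 and 6686 (2.60-fold) among them. The summed signal of the papillary list was 32241 on the abdominal array, 47667 on the dorsal, 60961 on the virgin and 44088 on the PP2 array, so the abdominal one was the lowest. Of reticular and fascia markers 3 were higher on the abdominal and 4 on the dorsal array, the latter led by *Gpx3*, a secreted peroxidase, at 843 and 3536 (4.19-fold).

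Contractile genes were on the abdominal side: of 23 smooth muscle and myofibroblast genes 10 were higher there and 1 on the dorsal array (median 0.92). *Acta2*, smooth muscle actin, had 16453 and 7569 (2.17-fold), the myosin heavy chain *Myh11* 3706 and 1117 (3.32-fold), the light chain *Myl9* 6602 and 1765 (3.74-fold), and *Pln*, which slows the calcium pump, 849.8 and 225 (3.78-fold). *Synm*, an intermediate filament protein also made by glia, had 2313 and 6968 and was 3.01-fold higher on the dorsal array, and *Des* (desmin) had 598 and 641. Pericyte genes did not share this side: 3 of 15 were higher on the dorsal and 0 on the abdominal array. These were the proteoglycan *Cspg4* at 925 and 2676 (2.89-fold) and the potassium channel subunits *Abcc9* at 723 and 1888 (2.61-fold) and *Kcnj8* at 446 and 996 (2.23-fold). *Rgs5* had 16275 and 14441, a log2 ratio of 0.17 that ran up to 0.92 over the alternative settings. Of 26 blood endothelial genes 3 were higher on the abdominal array, the leukocyte adhesion molecule *Sele* at 913 and 227 (4.03-fold) the most, and the lineage genes *Pecam1* at 2994 and 2238 and *Cdh5* at 4659 and 3344 did not pass 2-fold. Lymphatic genes differed more, with 4 of 11 higher on the abdominal and 1 on the dorsal array: *Mmrn1*, a secreted protein of lymphatic vessels, had 2847 and 476 (5.98-fold), *Prox1*, the factor that sets lymphatic fate, 216 and 42.4 (5.09-fold), and *Lyve1*, the hyaluronan receptor that macrophages share, 542 and 253 (2.14-fold, short of 2-fold with the mean over probe sets).

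Macrophage genes were higher on the abdominal array in 11 of 21, 20 of which were called present on that array and 15 on the dorsal, and higher on the dorsal array in 1 (median 1.0). *F13a1*, a clotting factor of tissue macrophages, had 3084 and 537 (5.74-fold), *Csf1r*, the receptor they need to survive, 942 and 331 (2.84-fold), *Adgre1* (F4/80) 219 and 79.2 (2.76-fold), *Mrc1* (CD206) 235 and 90.1 (2.61-fold) and *C1qb*, a subunit of complement, 293 and 114 (2.56-fold). The dorsal exception was *Arg1*, arginase, which keratinocytes also make, at 107 and 618 (at least 5.80-fold). The lysozyme genes *Lyz2* at 1443 and 2301 and *Lyz1* at 3228 and 5766 had the larger signal on the dorsal array. *Ctss*, a protease of antigen presentation, had 1348 and 339 (3.97-fold), and it was the only one of 9 genes of MHC class II presentation past 2-fold. The chemokines *Ccl8*, which draws monocytes, at 782 and 201 (3.90-fold) and *Pf4* at 384 and 152 (2.52-fold) were on the abdominal side. *Cxcl14*, a chemokine of skin epithelium and dermis, at 2104 and 5518 (2.62-fold) and the interferon-induced *Cxcl10* at 194 and 392 (2.02-fold, short of 2-fold with both arrays scaled to one median) and *Cxcl9* at 84.3 and 237 (at least 2.81-fold) were on the dorsal side. Of 34 interferon response genes, these last 2 and *Ifitm1* at 2202 and 5859 were past 2-fold. *Ighm*, the heavy chain of IgM, had 396 and 15.6, and its compared probe sets ran from a log2 ratio of -0.20 to 4.67. The virgin array had signals above the abdominal ones for *Adgre1* (431) and *Mrc1* (496) and a lower one for *F13a1* (2002).

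Of 23 Hox genes compared (32 on the array), 2 were higher on the dorsal and 0 on the abdominal array, *Hoxc10*, a gene of posterior segments, at 104 and 244 (2.35-fold) and *Hoxd1* at 1.19 and 20.8 (at least 3.17-fold). Of 44 other patterning transcription factors, 5 (11.4%) were higher on the abdominal and 7 (15.9%) on the dorsal array, against 5.42% and 5.1% of all genes. *Zic1*, a zinc finger factor of dorsal neural tube and somite, had 2308 and 85.8 (26.9-fold on the abdominal side), with 34.3 and 30.0 on the virgin and PP2 arrays, so it was high on 1 of the 3 abdominal arrays alone. Its other probe set had a log2 ratio of 7.64. *Pax3*, a factor of dermomyotome and neural crest, had 328 and 1297 (3.95-fold on the dorsal side), with 277 and 735 on the virgin and PP2 arrays. *En1*, a factor of the dorsal dermis lineage and of ventral limb ectoderm, had 26.7 and 91.3 (3.42-fold) and *Twist1*, a mesenchymal factor, 1021 and 2610.2 (2.56-fold), both higher on the dorsal array, though *En1*, like *Hoxd1*, was short of 2-fold with low signals raised to 79.5. *Emx2* at 269 and 107 (2.51-fold), *Gata6* at 590.5 and 251 (2.35-fold) and *Meox1*, a somite factor, at 603 and 247 (at least 2.44-fold) were higher on the abdominal array. *Tbx3*, which the study followed in the epidermis, had 719 and 1279.7 (1.78-fold in favour of the dorsal array, short of 2-fold), and its 3 compared probe sets ran from -3.09 to -0.83 on the log2 scale. Further *Tbx3* probe sets, called present on neither array, included log2 ratios of -0.37 and 0.36. The limb and trunk factor *Tbx15* had 638 and 832.

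For some of these genes the abdominal array stood apart from the other 3. *Twist1* had 2948 and 2794 on the virgin and PP2 arrays, *Fgf7* had 1905 and 2319 and *Robo2* had 696 and 337, all above the abdominal signals given above.

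Secreted regulators of growth were next compared, because the study turned to proteins that dermal cells release. Of 21 genes of the insulin-like growth factor axis 3 were higher on the abdominal and 4 on the dorsal array (median 0.00). *Igfbp2*, a binding protein of these factors, had 9084 and 646 (14.1-fold on the abdominal side), with 2023 and 3113 on the virgin and PP2 arrays, the largest difference of the axis. *Stc1*, a stanniocalcin, had 1615 and 459 (3.52-fold on the abdominal side), whereas its relative *Stc2* had 261 and 1663 (6.38-fold on the dorsal side) and 2993 and 1336 on the virgin and PP2 arrays. Stanniocalcins block the proteases that free growth factors from binding proteins. *Pappa2*, one such protease, had 1263 and 3822 (3.03-fold on the dorsal side), *Igfbp3*, the main carrier, 11912 and 30048 (2.52-fold) and *Igf1*, the ligand, 2529 and 5023, just short of 2-fold. Of 16 genes in a list of secreted Wnt inhibitors and their relatives, 0 were higher on the abdominal and 3 on the dorsal array. These were *Dkk3* at 939 and 4789.6 (5.10-fold), *Dkkl1* at 123 and 361 (2.93-fold) and *Dkk2* at 3534 and 7085 (2.01-fold, short of 2-fold with both arrays scaled to one median). Whether these 3 act on Wnt signals here was not tested. The summed signal of the list was 33728 on the abdominal array, 44805 on the dorsal, 49290 on the virgin and 43005 on the PP2 array. *Sfrp1*, a Wnt inhibitor of the frizzled-related kind, had 851 and 992 for its brightest probe set, and its 4 compared probe sets ran from a log2 ratio of -0.22 to 1.33. Another *Sfrp1* probe set, not called present on either array of the pair, had 664 and 799 (log2 ratio -0.27). *Axin2*, a target of Wnt signals, had 746 and 900.3. The ligand *Wnt5a* had 1111 and 464 (2.39-fold on the abdominal side) and its receptor *Ror1* 395 and 184 (2.14-fold). Of the remaining genes that the study named, *Thy1* had 4725 and 7130.4, *Tfrc*, the transferrin receptor, 2517 and 1123 (2.24-fold on the abdominal side) and *Stfa3*, a stefin, 278 and 1813 (6.52-fold on the dorsal side). *Ror1* and *Tfrc* were short of 2-fold with the mean over probe sets.

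**Figure D5:**
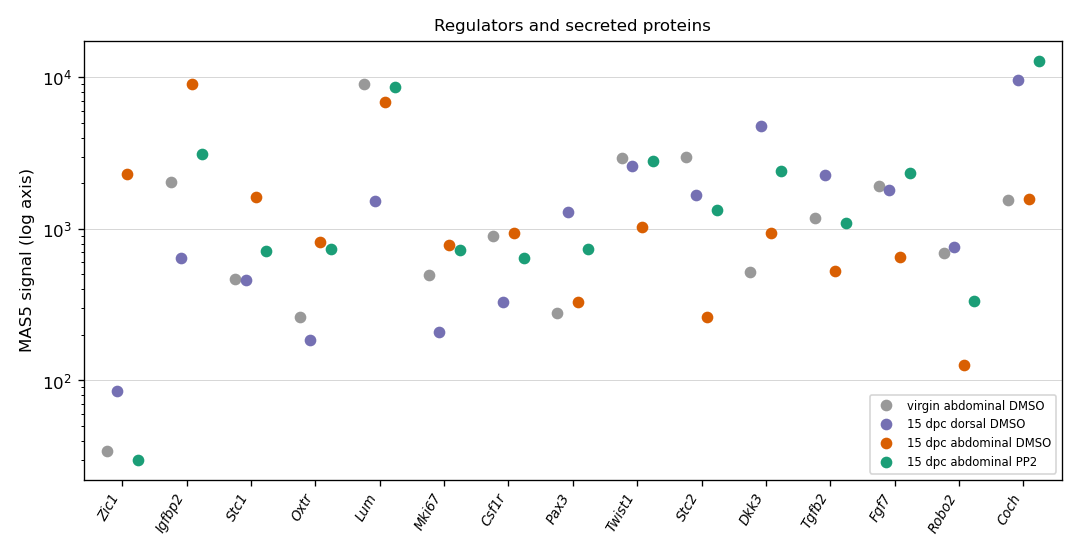
MAS5 signals (log axis) of 15 regulators, secreted proteins and cell type genes on the 4 arrays, 1 point per array and all called present except where open. From *Zic1* to *Csf1r* the abdominal points lie above the dorsal ones (*Igfbp2* at 9084 and 646), and from *Pax3* to *Coch* below them. For *Twist1*, *Stc2*, *Fgf7* and *Robo2* the abdominal point is the lowest of the 4, and *Zic1* lies between 30.0 and 85.8 on the other 3 arrays.

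Genes that answer hormones, time of day and tissue handling passed 2-fold mainly on the dorsal side. Of 21 genes of pregnancy hormones and their response, 4 were higher on the dorsal and 1 on the abdominal array. Their summed signal was 66706 on the abdominal array, 96594 on the dorsal, 83143 on the virgin and 78794 on the PP2 array. *Per1*, which both glucocorticoids and the clock induce, had 734 and 2005 (2.73-fold), the glucocorticoid target *Tsc22d3* 5349.9 and 11692 (2.19-fold) and *Zbtb16*, another such target, 1038 and 2372 (2.29-fold). *Greb1*, an oestrogen target, had 76.5 and 399 (at least 5.22-fold). *Oxtr*, the oxytocin receptor, was the exception at 818 and 186 (4.39-fold on the abdominal side), with 264 and 737 on the virgin and PP2 arrays. The receptors of oestrogen and progesterone did not pass 2-fold, *Esr1* at 943 and 899 and *Pgr* at 70.1 and 93.8. Of 17 clock genes 4 were higher on the dorsal array, *Bhlhe40* at 1692 and 5000.0 (2.96-fold), *Hlf* at 668 and 1591 and *Dbp* at 2150.4 and 4466 with *Per1*, while *Arntl* at 772 and 560.0 and *Clock* at 1344 and 928 had the larger signal on the abdominal array. Over the alternative settings the log2 ratio of *Clock* ran from -0.19 to 0.61, so its side was not kept. That of *Arntl* ran from 0.10 to 0.54. The summed signal of the clock list was 19002 on the abdominal array, 30024.5 on the dorsal, 30412 on the virgin and 27344 on the PP2 array. The sources used here do not give the time of day of sampling. Immediate early and dissociation stress genes had the larger signal on the dorsal array in 33 of 38 (median -0.52), 5 of them past 2-fold: *Fosl1* at 81.8 and 357, *Hspa1a* at 5613 and 12941, *Fosb* at 2794 and 5991, *Mt1* at 11035 and 22639 and *Mt2* at 11796 and 23635. *Fos* had 23394 and 33745 and *Jun* 17474 and 27231. The summed signal of the immediate early list was 300785 on the abdominal array, 462016 on the dorsal, 459189 on the virgin and 348272 on the PP2 array. In the hormone, clock and immediate early lists the abdominal array thus had the lowest sum of the 4. *Mt1* and *Mt2* were short of 2-fold with both arrays scaled to one median, and *Tsc22d3*, *Hlf* and *Dbp* with the mean over probe sets. Immediate early genes respond to tissue digestion, and their part in the dorsal differences was not tested. *Nppb*, a stretch-induced natriuretic peptide, had 135 and 599 (at least 4.43-fold on the dorsal side), with 206 and 1100.3 on the virgin and PP2 arrays, and of the 30 genes induced by stretch or YAP 3 were higher on the dorsal and 0 on the abdominal array. Of 17 Src family kinases and partners 0 passed 2-fold on either side, and of 50 genes of oxidative phosphorylation 0 did, though 45 of the latter had the larger signal on the abdominal array (median 0.26).

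Several further lists held genes past 2-fold, again to be read against 5.42% and 5.1% of all genes. Of 12 mammary epithelial genes 3 were higher on the dorsal and 1 on the abdominal array: the milk protein gene *Csn2* had 50.2 and 105 (2.10-fold), the tight junction gene *Cldn4* 593 and 1205 (2.03-fold) and *Krt18*, a keratin of simple epithelium, 73.0 and 36.0 (2.03-fold on the abdominal side). *Csn2* and *Krt18* were short of 2-fold with low signals raised to 79.5, and *Csn2* and *Cldn4* with both arrays scaled to one median. Of 15 neutrophil and acute inflammation genes 2 were higher on the abdominal and 3 on the dorsal array, the haptoglobin gene *Hp* at 183 and 58.7 (at least 3.12-fold) and *Lcn2*, an iron-trapping protein, at 408 and 169 (2.41-fold) on the former and *S100a9*, a subunit of calprotectin, at 3.68 and 64.1 (at least 9.74-fold) on the latter, whose signals were equal with low signals raised to 79.5. Complement genes divided likewise, 3 and 2 of 14, with *Cfb*, of the alternative pathway, at 417 and 188 (2.22-fold) on the abdominal side. Of the basement membrane genes, *Npnt*, the ligand that anchors the hair muscle, had 903 and 249 (3.63-fold, or a log2 ratio of 0.94 with the mean over probe sets) on the abdominal side, and *Fras1* 231 and 569 (2.46-fold) and *Frem2* 529.7 and 1866 (3.52-fold), which join epidermis to dermis, on the dorsal side, and the other 22 of 25 did not pass 2-fold. *Itga8*, the integrin chain that binds nephronectin, had 2169 and 980.1 (2.21-fold) and was on the same side as *Npnt*. Of 20 Wnt targets 5 were higher on the dorsal array, *Bambi* at 780.4 and 1616 (2.07-fold) among them, and 1, the cyclin *Ccnd1* at 3802 and 1827 (2.08-fold), on the abdominal. *Bmp5* at 172 and 76.0 (2.27-fold) was the only one of 23 BMP pathway genes on the abdominal side and *Bambi* the only one on the dorsal. In the prostaglandin list the receptor *Ptger2* at 112 and 22.1 (at least 5.06-fold) and *Alox5ap*, which feeds leukotriene synthesis, at 333 and 141 (2.36-fold) were on the abdominal side, 2 of 19. The hedgehog co-receptor *Cdon* had 831 and 325 (2.56-fold on the abdominal side), and *Adm*, the vasodilator adrenomedullin, 454 and 1473 (3.25-fold on the dorsal side). Of 26 endoplasmic reticulum stress genes 2 were higher on the abdominal array, the disulphide isomerase *Pdia3* at 5500.4 and 2716 (2.02-fold) and *Chac1* at 309 and 153 (2.02-fold). *Ptger2* was short of 2-fold with low signals raised to 79.5, *Bambi* with both arrays scaled to one median, and *Bmp5*, *Ccnd1* and *Pdia3* with the mean over probe sets.

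Some of the largest differences fell in no list. On the dorsal side, among genes present on both arrays, were *Wfdc21*, a small secreted protein, at 193 and 4051 (20.9-fold), *Slc14a1*, a urea transporter, at 64.0 and 736 (11.5-fold), *Ajap1*, a protein of cell junctions, at 167 and 1806 (10.8-fold), *Cldn9*, a claudin, at 20.6 and 198 (9.63-fold) and *Entpd3*, an enzyme that splits nucleotides outside the cell, at 193 and 1338 (6.92-fold). *Snx22*, *Map7d2*, *Plekha6* and *Gm6377* were also among the 20 largest, not all of which are named here. The signals of *Gm6377* were equal with low signals raised to 79.5. *Ttr*, the carrier of thyroxine, had 488 on the dorsal array and was not called present on the abdominal array (at least 74.2-fold), and all 3 of its probe sets lay on the dorsal side. *8430419K02Rik*, *Hemgn*, *Mymx*, *Galr2*, *Art5*, *Plaat1* and *Efcab6* were likewise present on the dorsal array alone, at signals of 71.7 to 138, and all were short of 2-fold with low signals raised to 79.5. On the abdominal side *Olfr78*, an olfactory receptor also made outside the nose, had 662 and 70.9 (9.34-fold), with its 4 probe sets between log2 ratios of 0.40 and 3.48, and the predicted gene *Gm11559* had 3132 and 128. *Grp*, gastrin-releasing peptide, had 281 and 4.03 (at least 30.0-fold) and *Spink8*, a protease inhibitor, 316 and 11.7 (at least 27.1-fold), with the dorsal signal not called present in either.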

How the data were processed

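The authors hybridised RNA of dermal cells to 4 Affymetrix mouse expression arrays, 1 per condition, and deposited MAS5 signals, which are background-corrected intensities on a linear scale, scaled per array, each with a detection call (present, marginal or absent). The submitters' processing notes name Affymetrix Expression Console version 1; the sources used here do not give the scaling. No column lacked a sample. Symbols came from the platform annotation, and probe sets with several or no symbols were left out. Ratios of deposited signals were taken with Python 3.11.15, numpy 2.4.6, pandas 2.3.3 and matplotlib 3.10.9, and the counting was checked on simulated data. Genes named were those the study names, the 20 largest ratios and 10 largest bounds a side, and up to 8 past 2-fold a side from each list, with defining members, and of these not all are printed. The genes compared and the lists were chosen with earlier results of these data known. The number of arrays limits the precision. Alternatives changed the scaling, the probe set rule, the detection filter, the fold and a floor.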

Additional observations from a re-analysis of the deposited data

How the results depend on the processing

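No paired analysis was possible because each condition had 1 array, and for the same reason no array could be left out. With genes called present on both arrays alone, 445 genes were higher on the abdominal and 453 on the dorsal array, and with no detection filter 1647 and 1911. At 1.5-fold the counts were 1668 and 1573, at 3-fold 308 and 246, and with a gene counted when any of its probe sets passed 1112 and 1147. The counts stayed within 1.5 times of 706 and 664 under the other alternatives: scaling to one median (804 and 565), quantile normalization (813 and 590), the mean over probe sets (702 and 666), a probe set chosen on the compared arrays (702 and 668), a floor of 79.5 on signals (494 and 451) and all probe sets past 2-fold (597 and 555). Without the hair and keratinocyte lists, an alternative chosen after seeing the data, they were 652 and 642. The abdominal share of all genes counted was 51.5%, and 58.7% with one median. That scaling moved the median log2 ratio by 0.08. All 18 lists with a median beyond 0.5 kept its sign in the 7 settings run for lists. Of 225 named genes past 2-fold, 178 stayed past it in the 5 settings run for genes. *Col3a1*, *Fabp4*, *Igf1*, *Pmvk*, *Pnpla2*, *Scd1* and *Tbx3* were short of 2-fold by their brightest probe sets. Each of them passed it in at least 1 of these settings. *Tyr* turned to -0.44 on the log2 scale with the mean over its probe sets, which lie on either side. Dim genes such as *Hoxd1*, *Dcc* and *S100a9* had no difference above the floor.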
